A study of Schizosaccharomyces pombe with 4 samples.

Results

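The gene nmt1 of the fission yeast Schizosaccharomyces pombe encodes an enzyme of thiamine biosynthesis, and the values here describe how much newly made histone H3 was recovered on it in 4 genotypes. Its tiles were chosen by position: all 39 array probes between 1838900 and 1840859 of chromosome III, in the coordinates of the array files, of 43993 probes in all. The gene itself was picked because its ratios between mutants and wild type were already known to be among the lowest of these arrays. All differences below are therefore descriptions of 4 arrays, with no test.

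nmt1 is switched off by thiamine and strongly transcribed when thiamine is absent, and its promoter and terminator are the parts most used to build regulated expression plasmids for this yeast. Histones on a transcribed gene are displaced and replaced more often than on a silent one, so new H3 can enter there outside DNA replication. RNA was not measured on these arrays, and the labels do not mention thiamine.

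Each genotype was represented by 1 array, with no replicate. The groups were the double mutant IRD2 clr3D, the single mutant IRD2 (IR-D2 in the labels, which do not define it), the single mutant clr3D, which lacks the histone deacetylase Clr3, and wild type (WT). All 4 strains carried the plasmid pINV1-H3.2-FLAG. All were grown in EMM-Leu medium with 8% glucose and held with 15 mM hydroxyurea (HU), an inhibitor of DNA synthesis, for 4 h, and H3-FLAG was then induced in 4% sucrose, still with 15 mM HU, for 2 h. Chromatin was crosslinked with 1% formaldehyde for 20 min and sheared to 400 to 600 bp. DNA bound to FLAG was labelled with Cy5 and whole-cell extract DNA with Cy3.

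Values are log2 of Cy5 over Cy3, each array centred on its own median, so 0 is the median probe of that array. The tiles are 60 bases long, and errors given with ± are the SD between tiles of 1 array. Neighbouring tiles overlap and share DNA fragments, so this SD is no replicate error, and the number of arrays limits the precision. All 39 tiles were well above background in both channels of all 4 arrays, and none was saturated or marked as an outlier. In the mating-type contig, 5 neighbouring tiles at 39251 to 39510, found by their loss of extract signal in both IRD2 strains, had a median log2 Cy3 difference from WT of -8.59 in IRD2 clr3D and -8.99 in IRD2, against -0.56 in clr3D. No probe of clr3 was among those analysed, so the clr3D label has no such check.

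The promoter of nmt1 holds one of the best known TATA boxes of fission yeast, the element weakened in the low-strength versions of nmt1 expression plasmids. It is shown because 1 tile lies across it. The sequence is that of RefSeq assembly ASM294v3, + strand, chrIII:1838165-1838414, which are the 250 bases before the annotated gene start, with the letters ATATATAAA in capitals.
nmt1 promoter: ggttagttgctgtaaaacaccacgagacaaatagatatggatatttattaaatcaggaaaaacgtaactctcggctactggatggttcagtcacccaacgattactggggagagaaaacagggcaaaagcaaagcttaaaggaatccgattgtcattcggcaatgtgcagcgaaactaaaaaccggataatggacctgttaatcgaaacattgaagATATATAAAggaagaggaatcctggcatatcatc
The letters stand 34 to 26 bp before the annotated gene start, once on the sense strand and 0 times on the other. Of 5112 promoters of the same length, 2.56% held ATATATAAA on either strand. Within the last 50 bp and on the sense strand, 0.352% held it.

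The other sequence shown is the end of the coding part, since the profile changes there. It is the last 30 coding bases, + strand, chrIII:1839496-1839525 of ASM294v3, with the stop codon in capitals.
nmt1 coding end: cttcgttatgtcgagcctgccaaccttTAA
At the inferred placement described next, stretches of 25 bases were sampled along each tile, though not from every position. For 0 of the 39 tiles did a sampled stretch occur at another place in the reference. The plasmid sequence was not searched.

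The array files name no genome build. In the reference the assembly gaps are 100 bp long, and nmt1 was placed by taking them as 1000 bp in the array's coordinates, which moves it by 900 bp. Under this inferred placement the gene lies at 1839315 to 1840564 on the + strand and its coding part ends at 1840425. A scan of 601 shifts, setting the GC content of the reference against the Cy3 signal of the 30 tiles before the coding end, did not single this placement out. The correlation across tiles was 0.11 at 900 bp and highest, at 0.61, at -1270 bp. Over all 39 tiles it was -0.21 at 900 bp and highest, at 0.58, at -810 bp. The names and edges given below thus rest on an inferred position.

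Along the 25 tiles of the gene interval, 1839300 to 1840559, new H3 was far above the array median in WT and much closer to it in the mutants. The mean log2 ratio over these tiles was 0.19 ± 0.56 in IRD2 clr3D, 0.15 ± 0.54 in IRD2 and 0.47 ± 0.44 in clr3D, against 1.19 ± 0.39 in WT. WT was the highest array at every tile. Among 897 protein-coding genes with at least 3 tiles, nmt1 ranked 231 from the top in IRD2 clr3D, 251 in IRD2 and 71 in clr3D, against 2 in WT. With the 22 tiles before the coding end only, the ranks were 461 in IRD2 clr3D, 535 in IRD2 and 137 in clr3D, against 2 in WT. Only hht2, a histone H3 gene, had a higher mean ratio over its tiles in WT.

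**Figure D1:**
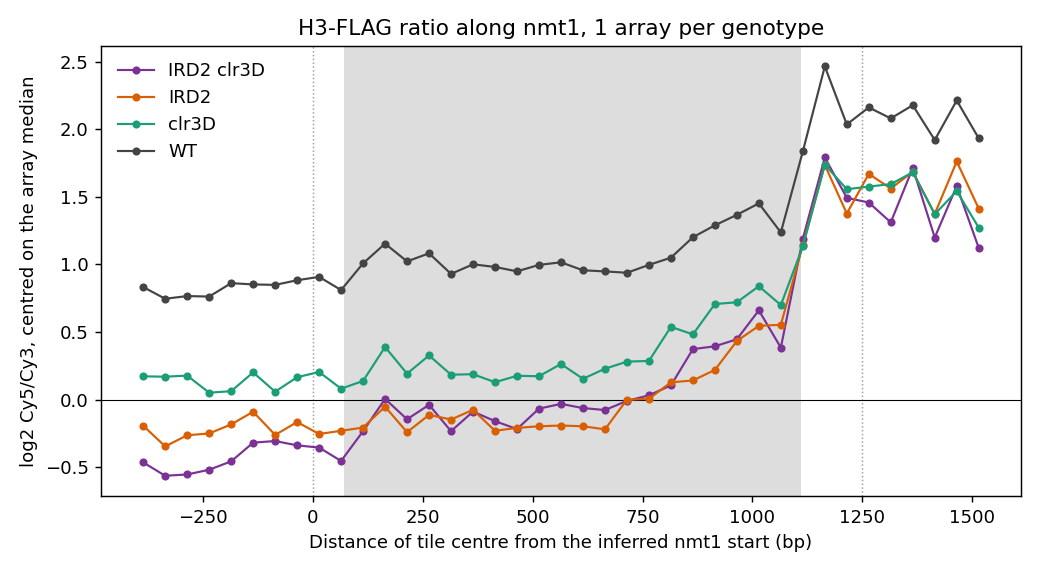
The log2 Cy5/Cy3 ratio of the 39 tiles against the distance of the tile centre from the inferred nmt1 start in bp, with 1 line per genotype and 1 array each. The grey band is the annotated coding part and the dotted lines are the gene start and end. WT lies above the 3 mutants at every tile, and all 4 lines step up at the coding end.

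All 4 arrays stepped up near the 3′ end of the gene. Over its 22 tiles before the coding end the mean log2 ratio was 0.01 ± 0.28 in IRD2 clr3D, -0.02 ± 0.26 in IRD2 and 0.34 ± 0.23 in clr3D, against 1.06 ± 0.16 in WT. The tiles fall into 3 stretches that differ in level: an upstream flank, the gene up to its coding end, and a stretch from the coding end outward.

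The upstream flank, 8 tiles from 1838900 to 1839309 that include the promoter, was uniform in each array. Its mean log2 ratio was -0.44 ± 0.11 in IRD2 clr3D, -0.22 ± 0.08 in IRD2 and 0.13 ± 0.06 in clr3D, against 0.82 ± 0.05 in WT. The double mutant was below IRD2 at 8 of 8 tiles, although their ranges overlapped, and the ranges of IRD2, clr3D and WT did not overlap. The tile at 1839250 to 1839309, which under the inferred placement contains the TATA box at 1839281 to 1839289, had a log2 ratio of -0.34 in IRD2 clr3D, -0.17 in IRD2 and 0.17 in clr3D, against 0.88 in WT. It was the highest flank tile in WT and lay inside the range of the other flank tiles in the mutants.

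Inside the gene and more than 600 bp before the coding end, beyond the longest stated fragment, 10 tiles had no step of the size at the coding end. They were not flat: they ran from -0.45 to 0.01 in IRD2 clr3D and -0.25 to -0.05 in IRD2. The range was 0.08 to 0.39 in clr3D, against 0.81 to 1.15 in WT. Their mean log2 ratio was -0.19 ± 0.14 in IRD2 clr3D, -0.18 ± 0.07 in IRD2 and 0.20 ± 0.09 in clr3D, against 0.98 ± 0.09 in WT. Here both IRD2 strains were close to each other, clr3D was above them and WT far above all 3. In the last 600 bp before the coding end, 12 tiles had means of 0.18 ± 0.26 in IRD2 clr3D, 0.10 ± 0.29 in IRD2 and 0.45 ± 0.25 in clr3D, against 1.12 ± 0.18 in WT. The ratio was flat in the first of these tiles and climbed towards the coding end in the later ones, apart from the last tile, which was lower than its neighbour in IRD2 clr3D, clr3D and WT.

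From 1840400 on, 9 tiles stood far higher in every array. Their mean log2 ratio was 1.43 ± 0.24 in IRD2 clr3D, 1.53 ± 0.21 in IRD2 and 1.50 ± 0.20 in clr3D, against 2.09 ± 0.19 in WT. The 3 mutants lay close together here, while further upstream clr3D had stood above both IRD2 strains. With loess within each array the 6 tiles past the gene were less alike, at 0.81 in IRD2 clr3D, 1.29 in IRD2 and 0.88 in clr3D, against 1.77 in WT. The last tile before the step, 1840350 to 1840409, had a log2 ratio of 0.38 in IRD2 clr3D, 0.55 in IRD2 and 0.70 in clr3D, against 1.24 in WT. The tile at 1840450 to 1840509, on the other side of it, had 1.79 in IRD2 clr3D, 1.74 in IRD2 and 1.74 in clr3D, against 2.47 in WT. In IRD2 clr3D, clr3D and WT that tile was the highest of the 39.

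The shape of the profile was alike in the 4 arrays, whatever its height. Across the 39 tiles the log2 ratios of 2 arrays correlated with Pearson's r of 0.98 to 0.99, and across the 30 tiles before the coding end with 0.86 to 0.96. These are descriptions: the arrays share their tiles, and neighbouring tiles share fragments.

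The ratio mixes 2 channels, and they did not behave alike along nmt1. A single channel also carries how well each tile hybridises, so its levels are best read between arrays at the same tiles. Over the gene before the coding end, 22 tiles, the centred log2 Cy5 signal averaged -0.15 in IRD2 clr3D, 0.08 in IRD2 and 0.54 in clr3D, against 0.85 in WT. In FLAG-bound DNA the double mutant was below IRD2, although their ratios over these tiles were nearly equal. The log2 Cy3 signal of the same tiles averaged -0.17 in IRD2 clr3D, 0.10 in IRD2 and 0.18 in clr3D, against -0.23 in WT. Extract signal was higher in IRD2 and in clr3D than in WT, and the double mutant lay close to WT. These single-channel differences between arrays were not set against those of all genes.

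In the 3′ stretch from 1840400 on, Cy5 was nearly equal in the 4 arrays and Cy3 was lowest in WT. Log2 Cy5 averaged 3.06 in IRD2 clr3D, 2.93 in IRD2 and 2.98 in clr3D, against 3.10 in WT. Log2 Cy3 averaged 1.62 in IRD2 clr3D, 1.39 in IRD2 and 1.46 in clr3D, against 0.99 in WT. The lower ratio of the 3 mutants in this stretch went with more extract signal. Before the coding end their FLAG-bound signal was lower than in WT, and in IRD2 and clr3D the extract signal was also higher. Over those gene tiles, clr3D minus WT was 0.41 in Cy3 and -0.31 in Cy5. IRD2 minus WT was 0.32 in Cy3 and -0.77 in Cy5.

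**Figure D2:**
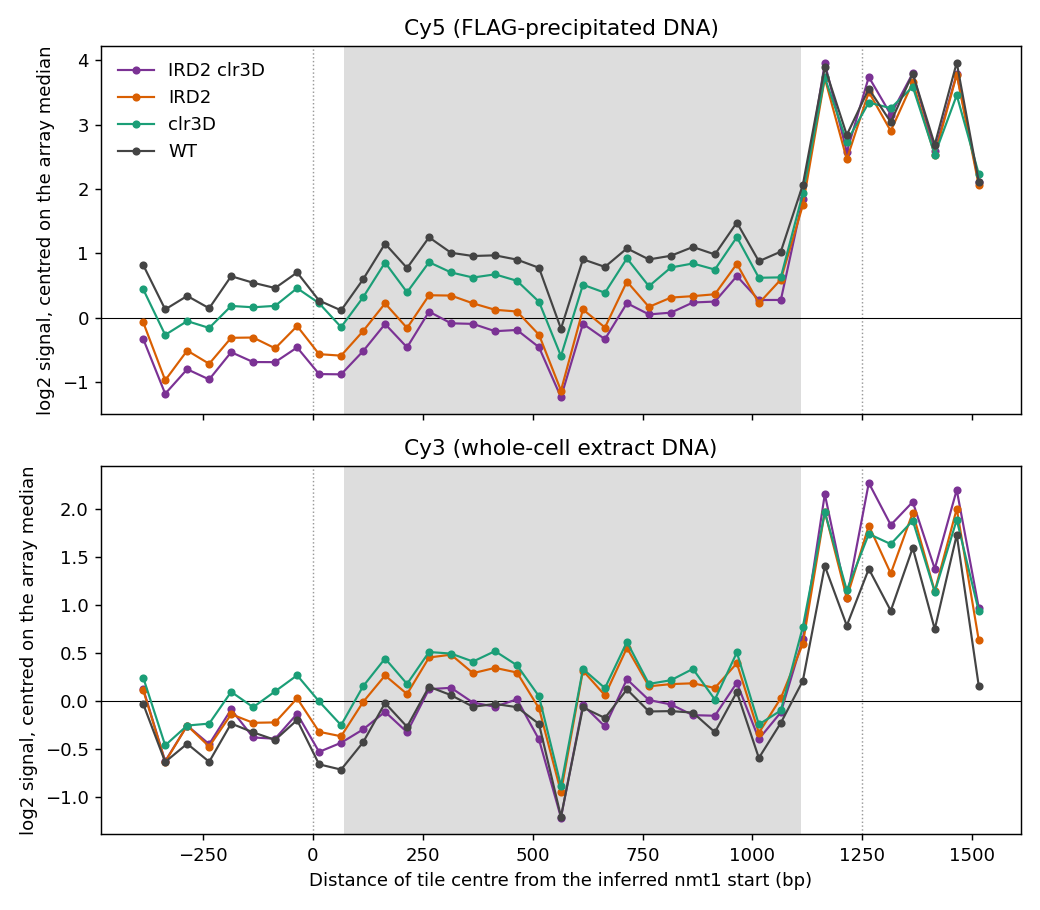
Centred log2 Cy5 (top) and log2 Cy3 (bottom) of the 39 tiles against the distance from the inferred nmt1 start in bp, with 1 line per genotype. Cy5 separates the genotypes before the coding end (gene means -0.15, 0.08, 0.54 and 0.85 in IRD2 clr3D, IRD2, clr3D and WT), and past it all 4 lines run together while both channels are high.

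The signals behind these values were strong. The processed Cy5 signal of the 39 tiles ran from 452 to 16490 in IRD2 clr3D, 486 to 14530 in IRD2 and 725 to 14510 in clr3D, against 965 to 16880 in WT. For Cy3 the ranges were 462 to 5159 in IRD2 clr3D, 548 to 4230 in IRD2 and 622 to 4476 in clr3D, against 484 to 3694 in WT. In the 30 tiles before the coding end, the SD of a single tile, taken from the differences between neighbours, was 0.09 in IRD2 clr3D, 0.07 in IRD2 and 0.08 in clr3D, against 0.06 in WT on the log2 ratio scale. It was 0.29 in IRD2 clr3D, 0.33 in IRD2 and 0.30 in clr3D, against 0.29 in WT for log2 Cy5. These values hold no spread between arrays.

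The clr3D array had a lower ratio than WT along all of nmt1. The clr3D minus WT difference in log2 ratio was -0.69 ± 0.08 over the upstream flank, -0.71 ± 0.10 over the gene and -0.60 ± 0.10 over the 3′ stretch. The gene value is 1.64-fold lower in clr3D and was the lowest of the 897 protein-coding genes. With Cy5 alone the gene difference was -0.29, the Cy3 difference over the same tiles being 0.42, so the larger share of it lay in the extract channel. Of the 39 tiles, 36 had a ratio difference below -0.5, where 1.14% of all tiles did. That count and the rank describe the choice of gene, which used this contrast.

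In IRD2 the difference from WT was larger before the coding end. The IRD2 minus WT difference in log2 ratio was -1.04 ± 0.05 over the upstream flank, -1.04 ± 0.18 over the gene and -0.57 ± 0.10 over the 3′ stretch. The gene value ranked 4 from the lowest among the 897 genes. Most of it was in FLAG-bound DNA: the gene difference was -0.71 in Cy5 and 0.34 in Cy3. Of the 39 tiles, 36 were below -0.5, where 4.49% of all tiles were. This count and the rank again came through a contrast that chose the gene.

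The double mutant was the lowest array over the promoter and close to IRD2 inside the gene. The IRD2 clr3D minus WT difference in log2 ratio was -1.26 ± 0.07 over the upstream flank, -0.9975 ± 0.19 over the gene and -0.66 ± 0.11 over the 3′ stretch. In Cy5 the gene difference was -0.90 and in Cy3 0.10, so nearly all of it was in FLAG-bound DNA. The gene ranked 4 from the lowest. Of the 39 tiles, 38 were below -0.5, where 4.87% of all tiles were. This count and the rank likewise came from a contrast that chose the gene.

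**Figure D3:**
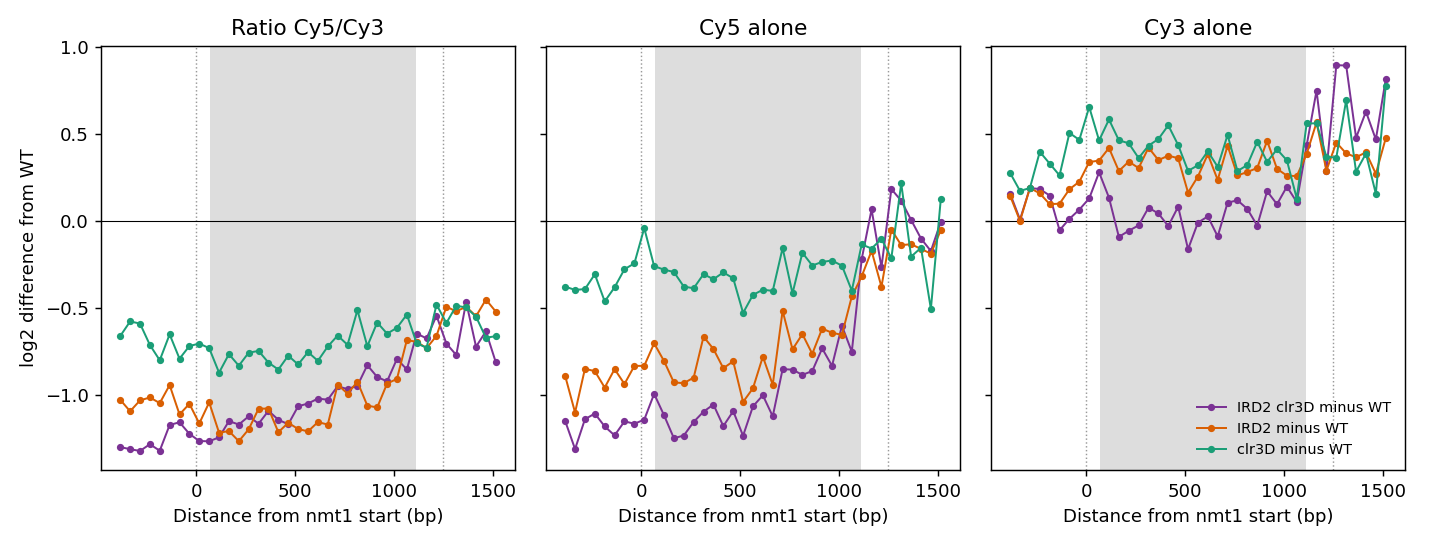
Difference from WT of IRD2 clr3D, IRD2 and clr3D at each of the 39 tiles, for the log2 ratio (left), log2 Cy5 (middle) and log2 Cy3 (right), against the distance from the inferred nmt1 start in bp. In Cy5 the 3 lines are spread out before the coding end and come together near 0 after it, with means of -0.04, -0.18 and -0.13. The 3 differences share the WT array.

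Set against IRD2, the double mutant had a lower ratio over the promoter and about the same ratio inside the gene. The IRD2 clr3D minus IRD2 difference in log2 ratio was -0.22 ± 0.08 over the upstream flank, 0.04 ± 0.11 over the gene and -0.10 ± 0.16 over the 3′ stretch. In Cy5 alone the difference was -0.27 over the flank and -0.19 over the gene. Of the 39 tiles, 0 were below -0.5, where 1.77% of all tiles were.

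Set against clr3D, the double mutant was lower everywhere before the coding end. The IRD2 clr3D minus clr3D difference in log2 ratio was -0.57 ± 0.12 over the upstream flank, -0.28 ± 0.15 over the gene and -0.07 ± 0.12 over the 3′ stretch. In Cy5 alone it was -0.82 over the flank and -0.61 over the gene. Of the 39 tiles, 9 were below -0.5, where 3.77% of all tiles were.

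**Figure D4:**
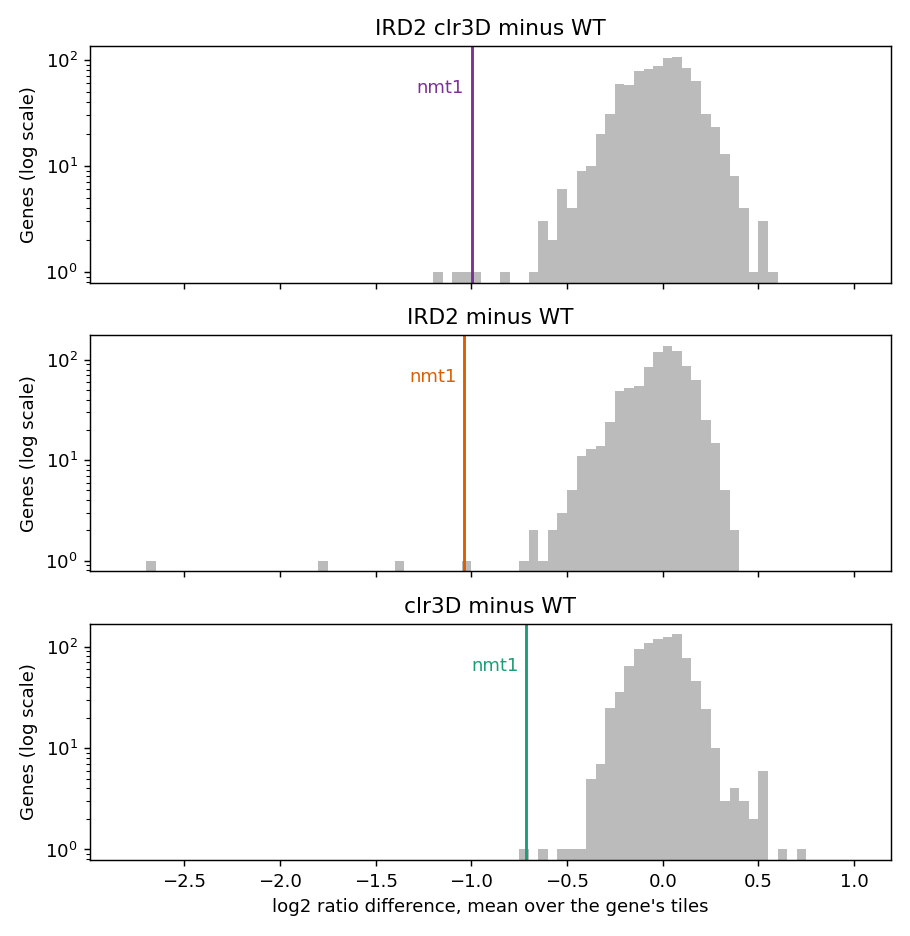
Histogram, with the number of genes on a log axis, of the log2 ratio difference from WT over 897 protein-coding genes in IRD2 clr3D, IRD2 and clr3D from top to bottom. The coloured line marks nmt1, at -0.9975, -1.04 and -0.71, outside the bulk of genes in each panel. The gene was picked for these differences.

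The difference between arrays with and without clr3 was not the same in the 2 backgrounds. Over the gene, its effect on the log2 ratio was 0.04 in IRD2 cells and -0.71 in cells without IRD2, a departure from additivity of 0.75 ± 0.16 between tiles. In Cy5 alone the same effects were -0.19 and -0.29, a departure of 0.10 ± 0.17. In Cy3 they were -0.23 and 0.42, a departure of -0.65 ± 0.18. The departure in the ratio lay almost wholly in the extract channel, where the double mutant did not share the higher signal of both single mutants. With 1 array per genotype, this departure and the deviation of any 1 array cannot be told apart. The log2 ratio also departed from additivity outside nmt1. The departure was 0.60 ± 0.10 over the hht2 coding part and 0.23 ± 0.18 over inv1, the invertase gene. It was 0.50 over 10 tiles before the hht2 coding start and -0.07 over 10 tiles after the hht2 coding end. Over the hht2 coding part it was -0.40 in Cy3 and 0.19 in Cy5. How the nmt1 departure ranks among all genes was not tested.

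The stretch past the coding end was next set against the rest of the tiled genome. In WT, runs of at least 4 consecutive tiles with a log2 ratio above 1.5 occurred at exactly 3 places. One was the nmt1 stretch, 1840400 to 1840859, with 9 tiles and a median of 2.08. The others were 8 tiles at 1366061 to 1366470 of chromosome 2, with a median of 2.07, and 16 tiles at 1724400 to 1725209 of chromosome 3, with a median of 2.17. The run on chromosome 2 covers the coding part of hht2, a histone H3 gene chosen here after its values were seen, and the other lies before the coding start of inv1, the invertase gene. The 3 places were found together in the WT array alone. IRD2 clr3D had 0 such runs. IRD2 had 2, with 1 at inv1, 1 elsewhere and 0 at nmt1 and hht2. clr3D had 5, with 1 at nmt1, 1 at inv1, 3 elsewhere and 0 at hht2. Fewer nmt1 tiles passed 1.5 in the mutants: 3 in IRD2 clr3D, 5 in IRD2 and 6 in clr3D, against 9 in WT. The cut lies close to the levels of these stretches in the mutants. In IRD2 clr3D the means were 1.43 at nmt1, 1.37 at hht2 and 1.56 before inv1. A count of 0 runs there does not mean that a stretch was absent.

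In WT each of the 3 stretches ended, to within 1 tile, at an edge of a coding part under the inferred placement. The coding part of hht2 lies at 1366058 to 1366468, the coding start of inv1 at 1725206 and the coding end of nmt1 at 1840425. The nmt1 and inv1 stretches run to the last tile of their piece on the far side, so their other edge was not measured. The plasmid carried by all 4 strains is named for INV1 and for H3.2. As background, many fission yeast expression plasmids carry the nmt1 terminator, but the labels do not say what follows the H3.2-FLAG gene in this one. Whether plasmid DNA contributed to these 3 stretches was not tested.

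The 3 stretches were similar in level. The mean log2 ratio over the hht2 coding part was 1.37 in IRD2 clr3D, 1.36 in IRD2 and 1.48 in clr3D, against 2.06 in WT. Before the inv1 coding start it was 1.56 in IRD2 clr3D, 1.67 in IRD2 and 1.76 in clr3D, against 2.19 in WT. In all 3 the mutants lay close together below WT, and the Cy5 differences of both single mutants from WT were small. For clr3D minus WT they were -0.13 at nmt1, -0.13 at hht2 and -0.10 before inv1. For IRD2 minus WT they were -0.18 at nmt1, -0.14 at hht2 and -0.08 before inv1.

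The step itself was measured as the mean of the stretch minus the mean of the 5 tiles next to it. At the nmt1 coding end the step in log2 ratio was 0.98 in IRD2 clr3D, 1.15 in IRD2 and 0.81 in clr3D, against 0.78 in WT. At the hht2 coding start it was 0.96 in IRD2 clr3D, 1.04 in IRD2 and 1.07 in clr3D, against 1.25 in WT. At the inv1 coding start it was 1.14 in IRD2 clr3D, 1.16 in IRD2 and 1.09 in clr3D, against 1.27 in WT. Every array had a step at all 3 edges, and the WT step was the smallest of the 4 at nmt1 and the largest at hht2 and inv1.

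Extract DNA stepped up at nmt1 and hht2 but hardly at inv1, where it was above the array median on both sides of the edge. The Cy3 step at the nmt1 coding end was 1.75 in IRD2 clr3D, 1.31 in IRD2 and 1.35 in clr3D, against 1.23 in WT. At the hht2 coding start it was 1.89 in IRD2 clr3D, 2.02 in IRD2 and 1.96 in clr3D, against 1.59 in WT. At the hht2 coding end it was 3.26 in IRD2 clr3D, 3.28 in IRD2 and 3.42 in clr3D, against 3.01 in WT. At the inv1 coding start it was 0.32 in IRD2 clr3D, 0.12 in IRD2 and 0.17 in clr3D, against -0.11 in WT. The inv1 stretch itself had a Cy3 mean of 1.69 in IRD2 clr3D, 1.47 in IRD2 and 1.35 in clr3D, against 1.03 in WT. The tiles next to it had 1.38 in IRD2 clr3D, 1.35 in IRD2 and 1.18 in clr3D, against 1.14 in WT. Tiles inside and outside a stretch differ in sequence, and what that adds to a step in a single channel was not tested.

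**Figure D5:**
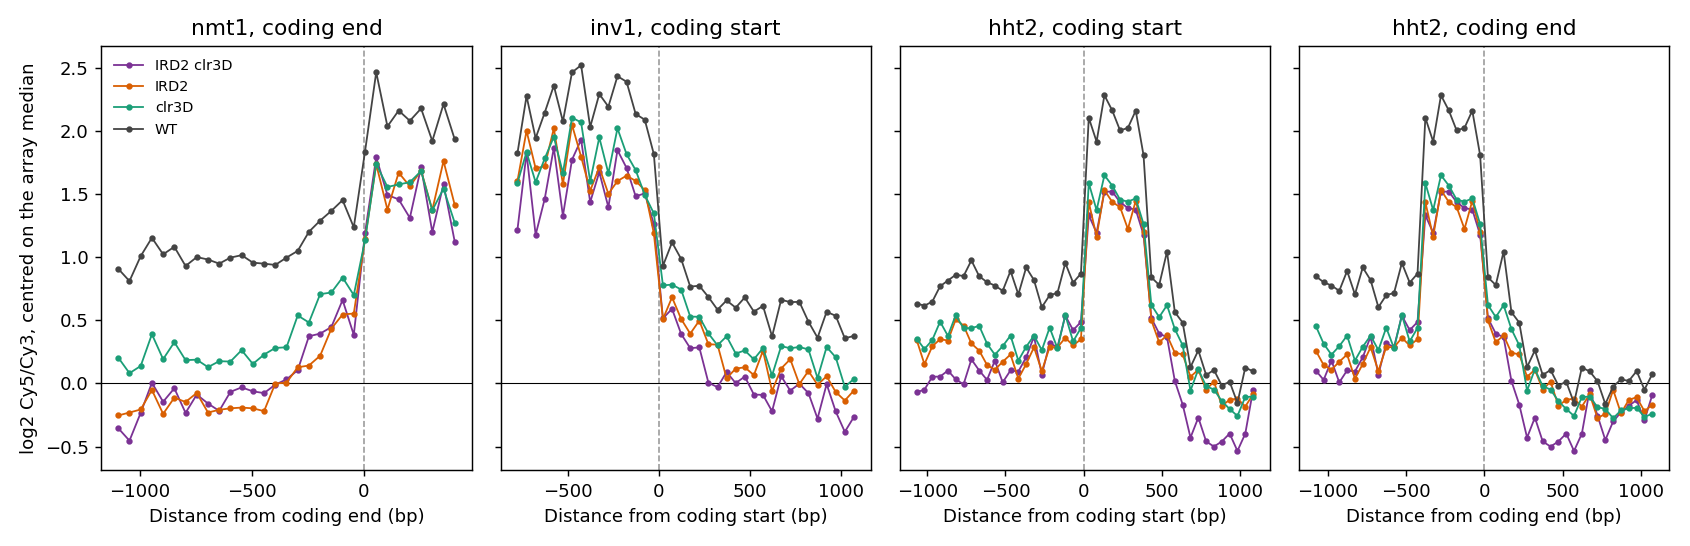
Log2 Cy5/Cy3 ratio against the distance in bp from 4 coding edges (dashed lines at 0), with 1 line per genotype: the end of nmt1, the start of inv1, and the start and end of hht2. Each of the 4 edges shows a step in all 4 arrays within about 1 tile of the edge. At nmt1 the ratio also climbs over the tiles before the edge, and past the inv1 start and the hht2 end it falls further over several tiles.

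Outside the high stretches, tiles at inv1 and hht2 differed less from WT in ratio than nmt1 did before its coding end. Over the inv1 coding part, 35 tiles, the log2 ratio was -0.06 in IRD2 clr3D, 0.06 in IRD2 and 0.23 in clr3D, against 0.55 in WT. The differences from WT there were -0.62 for IRD2 clr3D, -0.49 for IRD2 and -0.33 for clr3D. The nmt1 gene before its coding end had -1.05, -1.08 and -0.72 in the same order, so its ratio differences were the larger in each mutant, as untested values. Since nmt1 was picked for its low ratios between mutants and WT, this order follows from the choice of gene. In Cy5 alone the inv1 coding part had -0.21 for IRD2 minus WT and -0.19 for clr3D minus WT, against -0.77 and -0.31 for nmt1.

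Other annotated genes on the 39 tiles were non-coding RNAs. SPNCRNA.1234, antisense to nmt1, spans all 39 tiles, so the arrays cannot tell the 2 apart. SPNCRNA.1235 had 3 tiles, all in the 3′ stretch, with a log2 ratio of 1.30 in IRD2 clr3D, 1.52 in IRD2 and 1.40 in clr3D, against 2.02 in WT. Of 13 thiamine genes listed for this work (transporters, enzymes and regulators of the pathway), 1 was measured with at least 3 tiles, nmt1 itself. No comparison with other thiamine genes could be made.

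The genes most like nmt1 were ranked by the Euclidean distance over the 3 differences from WT, on the log2 ratio scale, among all annotated genes with at least 3 tiles. SPNCRNA.1234 was closest through shared tiles, at 0.09. It was followed by SPNCRNA.1425 and SPNCRNA.5103, which share 26 tiles and stood at 0.42, SPNCRNA.5781 at 0.46 and SPNCRNA.5414 at 0.47. The log2 ratio of SPNCRNA.1425 was 0.02 in IRD2 clr3D, -0.14 in IRD2 and 0.44 in clr3D, against 0.80 in WT. Its array order was IRD2 lowest, then the double mutant, clr3D and WT. The gene interval of nmt1 had the same order, which follows in part from ranking genes by these differences. At nmt1 the order of the double mutant and IRD2 turned in Cy5 alone.

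Among protein-coding genes the nearest were hht2 at 0.65, hhf2, a histone H4 gene, at 0.66, fmo1 at 0.71, inv1 at 0.75 and mug124 at 0.75. In all 5 the IRD2 minus WT and clr3D minus WT differences were closer to 0 than at nmt1, which was picked for its low values. The nearest of these by distance, hht2, had -0.61 for IRD2 clr3D minus WT, -0.58 for IRD2 minus WT and -0.45 for clr3D minus WT. These means include the high stretch over its coding part. fmo1 came closest to nmt1 in clr3D minus WT, with -0.62. Past the -0.5 threshold lay 1.9% of the 897 genes for IRD2 clr3D minus WT, 1.45% for IRD2 minus WT and 0.334% for clr3D minus WT. It was 0.892% for IRD2 clr3D minus clr3D and 0.0% for IRD2 clr3D minus IRD2, and nmt1 did not pass it in either.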

How the data were processed

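Per the labels' protocols, the authors hybridised Cy5 ChIP DNA and Cy3 extract DNA to 2-colour tiling arrays. Intensity values of each spot were deposited as written by Feature Extraction 12.0.3.1 of Agilent, as the headers state. The deposited value table holds a linear Cy5 over Cy3 ratio, and its log2 differed from that of the processed signals by at most 1.12e-08. All arrays share 1 slide and 1 scan. Median processed signals were 1062 to 1093 in Cy5 and 1057 to 1146 in Cy3.

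The ratio log2(Cy5/Cy3) of processed signals was centred on each array's median, without loess or quantile steps; 1227 control spots per array were left out, and 9 to 21 outlier spots per array, none in nmt1, were left out of the medians only. Single channels were centred likewise. Genes with at least 3 tiles were given the mean of these. Python 3.11.15, numpy 2.4.6, pandas 2.3.3, and limma 3.58.1 in R 4.3.3 (loess, normexp with offset 50) were used; the assignment of tiles to genes was checked on simulated tiles. For normexp the median pixel and background signals served, since the mean signals are not used here.

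Named were nmt1, genes on its tiles, inv1, measured members of the thiamine list and the 5 genes nearest to nmt1; hht2 in the run comparison was added. The members and lists were chosen with earlier results of these data known.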

Additional observations from a re-analysis of the deposited data

Results flagged for a closer look

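The effect of deleting clr3 on the nmt1 gene was not the same in the 2 backgrounds, in 2 related measures, and the difference was not tested, as each genotype has 1 array. In log2 ratio it was 0.04 in IRD2 cells and -0.71 in cells without IRD2, a difference of 0.75, above 0 at all 25 tiles. The value of 0.04 is near 0: 9 of the 25 tiles were below 0, and it was -0.016 more than 600 bp before the coding end. The sign in IRD2 cells is not settled. Tiles of the same arrays overlap and are no replicates, so neither tile count can settle a sign or a departure. In log2 Cy3, the extract channel, it was -0.23 in IRD2 cells and 0.42 in cells without IRD2, a difference of -0.65. In Cy5 alone both effects were below 0, -0.19 and -0.29. The difference in log2 ratio was also above 0 over the hht2 coding part, at 0.60, and over the inv1 gene, at 0.23. It was -0.07 over 10 tiles after the hht2 coding end. Whether the size of the difference is particular to nmt1 was not tested.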

How the results depend on the processing

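The 24 values (ratio over the gene and both flanks in each array, differences and departure from additivity) were recomputed under 13 alternatives, 2 of them, on the tiles used, chosen after seeing the data. Of 277 values, 232 moved by less than the SD between tiles and 45 by more, and 8 turned sign. No paired analysis was possible because each genotype has 1 array, and leaving out an array was likewise not run. No value moved when the arrays were centred on chromosome II tiles, with the deposited value table, with every other tile or with only probes well above background on all arrays. The downstream flank has 6 tiles, so leaving out 3 at each end was not run there. The cause of a move was not tested.

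The gene ratio of the IRD2 strains is close to 0 and turned with the tiles used. In IRD2 clr3D it was -0.032 as a median over tiles and -0.19 more than 600 bp before the coding end. In IRD2 it was -0.076 as a median, -0.024 before the coding end and -0.18 more than 600 bp before it. IRD2 clr3D minus IRD2 over the gene was -0.19 in Cy5 alone and -0.016 more than 600 bp before the coding end.

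With Cy5 alone, the gene differences were -0.71 for IRD2 minus WT, -0.29 for clr3D minus WT and -0.61 for IRD2 clr3D minus clr3D, and the departure from additivity was 0.10. Upstream, Cy5 was -0.70 in IRD2 clr3D and -0.43 in IRD2, against 0.47 in WT, with differences from WT of -1.18 for IRD2 clr3D, -0.91 for IRD2 and -0.35 for clr3D. Downstream, Cy5 was 3.20 in IRD2 clr3D, 3.07 in IRD2 and 3.07 in clr3D, against 3.19 in WT, with differences of 0.0045 for IRD2 clr3D, -0.12 for IRD2 and -0.12 for clr3D.

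With normexp, differences from WT were larger. Over the gene they were -1.41 for IRD2 clr3D, -1.51 for IRD2 and -1.01 for clr3D, with WT itself at 1.70 and the departure from additivity at 1.11. Upstream they were -1.93 for IRD2 clr3D, -1.63 for IRD2 and -1.06 for clr3D, with clr3D at 0.33 and WT at 1.39. Downstream they were -0.91 for IRD2 clr3D, -0.59 for IRD2 and -0.74 for clr3D, with WT at 2.26.

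Loess within each array moved the downstream ratio to 0.81 in IRD2 clr3D, 1.29 in IRD2 and 0.88 in clr3D, against 1.77 in WT, with differences from WT of -0.96 for IRD2 clr3D and -0.89 for clr3D. It moved the upstream difference of IRD2 clr3D to -1.18. Raw median signals gave upstream differences of -1.19 for IRD2 clr3D and -0.98 for IRD2. Scaling to one median absolute deviation gave downstream differences of -0.54 for IRD2 clr3D and -0.19 for IRD2, with IRD2 at 1.77. Without the 3 outermost tiles at each end, the upstream ratio of clr3D was 0.057.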
